A study of Homo sapiens with 13 samples.

Results

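Immediate early response genes are switched on within minutes of a growth factor, a stress or a cytokine, without new protein being made first. The 10 genes described here were EGR1, EGR2, EGR3, NR4A1, ATF3, KLF6, SRF, IER2, IER3 and DUSP1, taken by name from 19881 protein-coding genes with a canonical transcription start site (TSS) on chromosomes 1 to 22, X and Y. The positions of their genes and TSSs came from GENCODE release 44 mapped to GRCh37 (hg19). Around each gene, the peaks of 6 lists made by chromatin immunoprecipitation and sequencing were read: H3K4me3, H3K27ac, H3K4me1, RNA polymerase II (Pol II), the acetyltransferases p300 and CBP (seen with 1 antibody), and the insulator protein CTCF.

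All lists came from MDA-MB-231, an established human cell line from a triple-negative breast tumour of the basal B type. The cells were unmodified and in ordinary growth medium, with no stimulus or time point in the labels, so the lists give 1 steady state of these genes and not their induction. There were 2 replicate libraries for each antibody except p300/CBP, which had 1 library, and 2 input libraries that were not used here. The replicates had been merged before peaks were called, and a list holds only the first and last position of each peak. There is therefore no replicate error, no peak height and no depth, and no test between groups could be made. Counts of the 10 genes with a peak are read against the percent of all genes that met the same criterion.

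The lists held between 13984 peaks (p300/CBP) and 88319 peaks (H3K4me1). The study itself reports fewer p300/CBP peaks than the deposited list holds. Of 5 genes marking the mesenchymal-like state of this line (VIM, CD44, CAV1, AXL, FOSL1), 5 had H3K27ac within 1.5 kb of the TSS. Of 6 luminal or epithelial markers, FOXA1 had it, and ESR1, PGR, GATA3, CDH1 and EPCAM did not.

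H3K4me3 marks the nucleosomes next to start sites, H3K27ac marks active promoters and enhancers, and H3K4me1 marks enhancers and the edges of promoters. Many immediate early promoters carry a CArG box, bound by serum response factor (the product of SRF) together with ETS-family partners, or a cyclic AMP response element (CRE), bound by CREB and ATF proteins. In many cells Pol II waits just past the start of these genes before a signal arrives. p300 and CBP acetylate H3K27 and are recruited by such transcription factors.

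The promoter sequences below are shown because these motifs divided the 10 genes into sets. They are the 250 bases before the TSS in GRCh37, read 5′ to 3′ on the strand of the gene. Capitals mark CArG boxes, the CRE core TGACG on either strand (alone or within the full CRE TGACGTCA), and the TATA box TATAAA, all on either strand. EGR1 is at chr5:137800918-137801167, SRF at chr6:43138757-43139006, DUSP1 at chr5:172198199-172198448 on the minus strand, and ATF3 at chr1:212781853-212782102.
EGR1: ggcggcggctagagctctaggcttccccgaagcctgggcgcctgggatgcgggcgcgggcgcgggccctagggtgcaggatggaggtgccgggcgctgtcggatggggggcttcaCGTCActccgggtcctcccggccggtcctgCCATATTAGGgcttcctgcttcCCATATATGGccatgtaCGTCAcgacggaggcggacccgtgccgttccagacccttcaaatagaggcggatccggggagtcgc
SRF: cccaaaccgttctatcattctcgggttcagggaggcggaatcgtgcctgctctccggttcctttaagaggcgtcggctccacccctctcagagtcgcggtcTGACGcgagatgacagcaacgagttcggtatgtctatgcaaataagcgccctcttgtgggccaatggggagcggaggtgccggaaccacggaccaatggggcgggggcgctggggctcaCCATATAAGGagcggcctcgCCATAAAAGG
DUSP1: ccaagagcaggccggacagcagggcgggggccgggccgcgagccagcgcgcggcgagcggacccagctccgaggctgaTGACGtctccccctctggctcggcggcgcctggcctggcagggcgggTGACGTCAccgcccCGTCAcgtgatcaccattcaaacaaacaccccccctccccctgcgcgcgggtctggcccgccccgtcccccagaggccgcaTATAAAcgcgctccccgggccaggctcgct
ATF3: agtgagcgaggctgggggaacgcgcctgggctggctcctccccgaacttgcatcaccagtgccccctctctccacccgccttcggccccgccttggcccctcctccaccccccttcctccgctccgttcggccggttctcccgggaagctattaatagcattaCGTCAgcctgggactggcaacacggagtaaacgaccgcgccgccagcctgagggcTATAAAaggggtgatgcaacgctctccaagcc

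CArG boxes were found within 250 bases before and 50 bases after the TSS in 4 of the 10 genes, EGR1, EGR2, EGR3 and SRF, against 1.20% of all 19881 promoters and 0.982% of the 12218 promoters with H3K27ac. EGR1 held them at -105 to -96 and at -83 to -74, counted from the TSS. EGR2 and EGR3 each held 1, at -71 to -62 in both. SRF held 1 at -30 to -21 and 1 that ended on the last base before its own TSS. Of 28 further immediate early genes, DUSP5 and MCL1 had a CArG box in this window.

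In EGR1, EGR2 and EGR3, which encode zinc-finger transcription factors of 1 family, a CArG box was followed after exactly 7 bases by a CRE core. The criterion was set after this spacing had been seen. Over all 19881 promoters, 62 held both motifs without overlap, and 4 held them 7 bases apart in either order: EGR1, EGR2, EGR3 and DUSP5. The 30 bases that end with the pair are given for comparison, from chr5:137801077-137801106 for EGR1, chr10:64576176-64576205 for EGR2 (minus strand, in an intron of a longer EGR2 transcript) and chr10:112257587-112257616 for DUSP5. DUSP5, a dual-specificity phosphatase gene, had a further CArG box that ended on the base before the one in the pair.
EGR1 pair: cctgcttcCCATATATGGccatgtaCGTCA
EGR2 pair: tcctcagtCCATATATGGgcagcgaCGTCA
DUSP5 pair: ATATTTGGCCTTATATGGgcagccgCGTCA

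The full CRE was found in 1 of the 10 genes, DUSP1, at -125 to -118 (2.68% of all promoters). The CRE core was found in 8, the exceptions being KLF6 and IER3 (29.2%). A TATA box lay at -32 to -27 in ATF3 and at -30 to -25 in DUSP1, and a match in SRF lay after the TSS, at 15 to 20 (9.62%). The SP1 box GGGCGG was found in NR4A1, KLF6, SRF, IER2, IER3 and DUSP1, that is, 6 of 10 against 61.4%. The AP-1 motif TGANTCA was in none of the 10 promoters (5.40%), and neither was the EGR motif GCGTGGGCG (1.17%). All 10 genes had H3K27ac at the TSS. Among the promoters with H3K27ac, 3.53% held the full CRE, 35.4% the CRE core and 4.94% the TATA box. The SP1 box was in 75.7% of them, AP-1 in 3.99% and the EGR motif in 1.45%. A match describes letters only and does not show that a protein was bound.

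**Figure D1:**
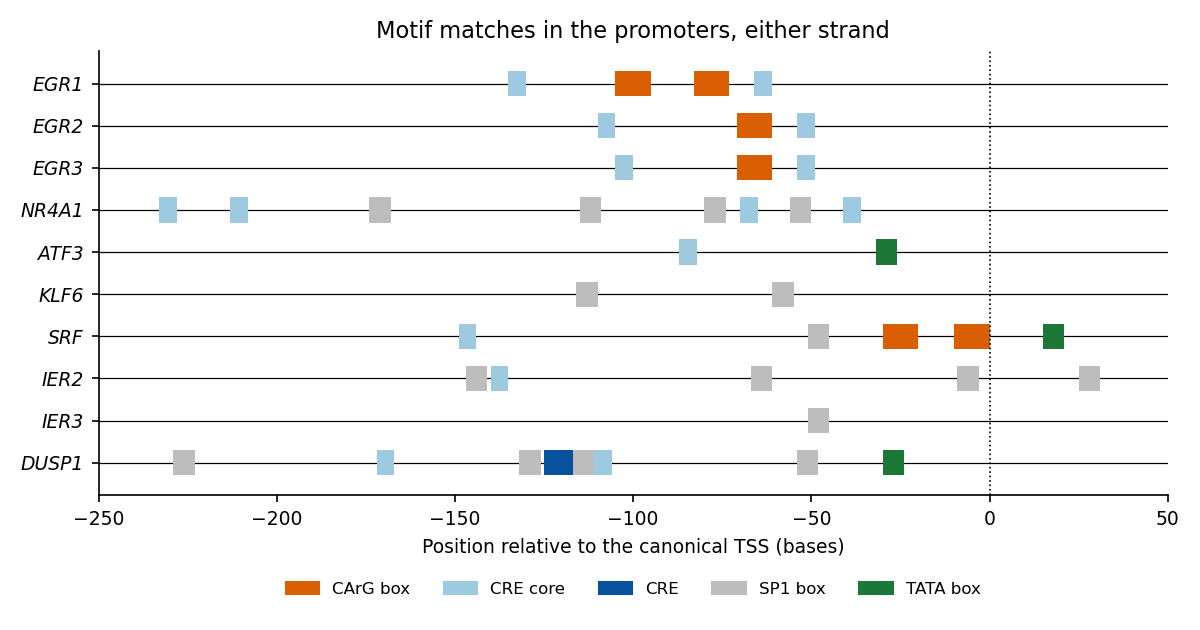
Motif matches on either strand from 250 bases before to 50 bases after the canonical TSS (x axis, bases; dotted line, TSS) in the 10 genes. CArG boxes appear in EGR1, EGR2, EGR3 and SRF, and the full CRE in DUSP1. In EGR1, EGR2 and EGR3 a CRE core lies 7 bases after a CArG box.

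At the TSS, all 10 genes had H3K4me3 and H3K27ac within 1.5 kb either side, where 62.7% and 61.5% of all genes had these marks. H3K4me1 was present in 9 of 10 (59.4% of all genes, and 85.3% of genes with H3K27ac at the TSS), the exception being DUSP1, whose nearest H3K4me1 peak lay 1.95 kb upstream. Pol II was present in 9 of 10 (58.4% and 92.0%), the exception being EGR2. Among genes with H3K27ac, 97.7% also had H3K4me3. The counts for H3K4me3, H3K4me1 and Pol II were thus near the shares in genes with an acetylated promoter.

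p300/CBP was listed in the window of 2 of the 10 genes, IER3 and DUSP1, where 0.704% of all genes and 0.990% of genes with H3K27ac had it. IER3 encodes a stress-induced regulator of survival, and DUSP1 the phosphatase that removes the activating phosphates from MAP kinases. These peaks were each 100 bp, the narrowest width in the list. In DUSP1, a pair of them lay at -1.45 to -1.35 kb and at -1.30 to -1.20 kb, the latter abutting a CTCF peak of 450 bp, and both shared bases with the H3K27ac and Pol II peaks over the gene. In IER3, the one in the window lay at 1.42 to 1.52 kb, past the 3′ end of this 1.35 kb gene. It was nearer to the TSS of FLOT1, a membrane scaffold gene, at 0.337 kb. Within 1 kb of the TSS none of the 10 genes had p300/CBP.

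CTCF was listed in the window of 6 of the 10 genes, EGR1, EGR3, ATF3, IER2, IER3 and DUSP1, against 17.6% of all genes and 24.4% of genes with H3K27ac. Of the 28 further immediate early genes, 4 had CTCF there (14.3%): CCN1, CCN2, GADD45B and NFKBIA, named after their values were seen. The CTCF peak of EGR1 spanned 700 bp, wider than 99.0% of CTCF peaks at promoters, from -1.52 to -0.82 kb. EGR3 had 3 CTCF peaks from -2.41 to -0.86 kb, of which the nearest, 100 bp wide, was the one in the window. In IER2 the CTCF peak covered the TSS, and it also covered that of STX10, a divergent neighbour that encodes a syntaxin. In EGR2 the nearest CTCF peak ended 1.52 kb upstream, just outside the window.

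By the combination of lists in the window, EGR1, EGR3, ATF3 and IER2 were alike (all but p300/CBP), as were 2308 genes in all and, among the further immediate early genes, NFKBIA, the gene of the NF-kappaB inhibitor. NR4A1, KLF6 and SRF had the 4 lists without p300/CBP and CTCF, a combination of 7195 genes (36.2%), including NR4A2, IER5, KLF2, MCL1, ZFP36, BTG2, GADD45A, PPP1R15A, RHOB and MAFF. EGR2 shared its 3 histone marks without Pol II with CSRNP1, ARC and 402 genes in all. IER3 had all 6 lists, as did 23 genes including CCN2, which encodes a matricellular growth factor. DUSP1 had all but H3K4me1, found in 7 genes.

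**Figure D2:**
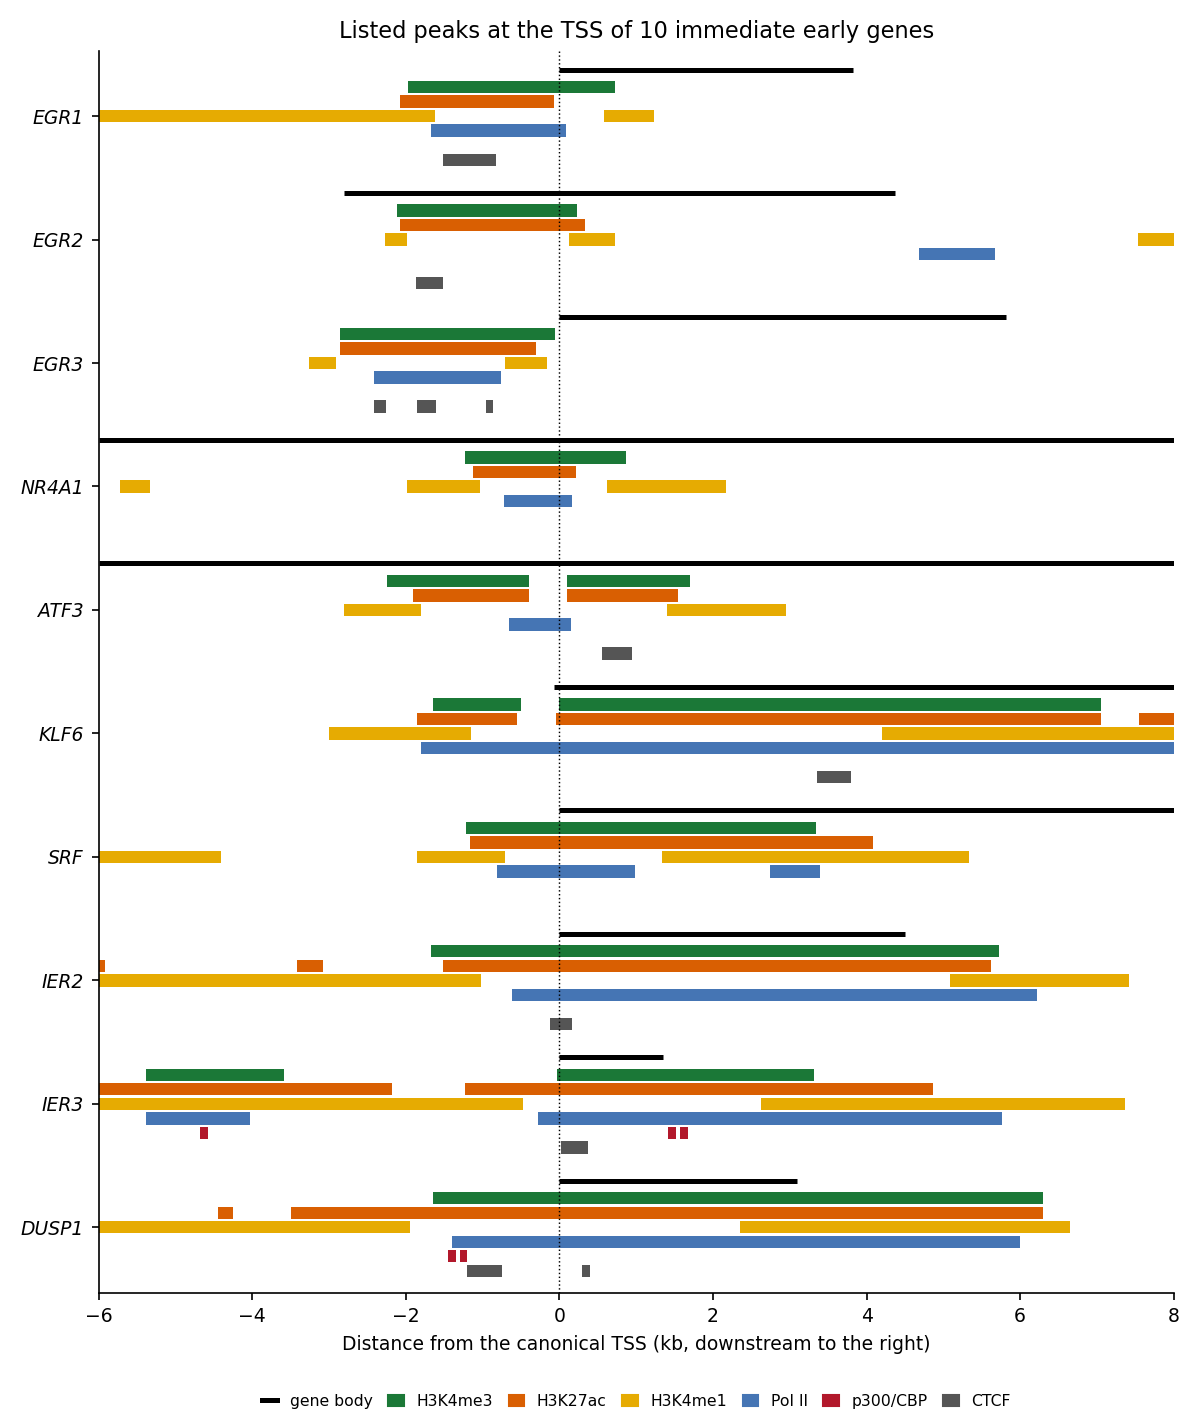
Peaks of the 6 lists from 6 kb upstream to 8 kb downstream of the canonical TSS (x axis, kb; dotted line, TSS) of each gene; the black line is the gene body and each bar a listed peak, cut at the edges and drawn no thinner than 1/300 of the axis. The H3K27ac bars of EGR1 and EGR3 end before the TSS, whereas those of KLF6, SRF, IER2, IER3 and DUSP1 run over 4 kb into or past the gene.

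In EGR1, EGR2 and EGR3, H3K27ac lay wholly or mostly upstream of the TSS. H3K4me3 ran from -1.97 to 0.73 kb at EGR1, -2.12 to 0.23 kb at EGR2 and -2.86 to -0.06 kb at EGR3. In EGR1, a growth-factor-induced transcription factor gene, the H3K27ac peak ran from -2.07 to -0.07 kb and Pol II from -1.67 to 0.08 kb. In EGR3 the H3K27ac peak ran from -2.86 to -0.31 kb and Pol II from -2.41 to -0.76 kb. Neither gene had any H3K27ac in the 1.5 kb after the TSS, which was so in 4.33% of genes with H3K27ac in the window. In EGR2 the H3K27ac peak ran from -2.07 to 0.33 kb, with no Pol II peak over the TSS. The base at the TSS was inside an H3K27ac peak in 7 of 10 genes (77.4% of genes with H3K27ac), not in EGR1, EGR3 and ATF3, and inside a Pol II peak in 8 of 10 (81.6%), not in EGR2 and EGR3. More H3K27ac bases lay upstream than downstream in EGR1, EGR2, EGR3 and NR4A1 (4 of 10, against 29.8%).

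Other start sites bear on these sides. EGR2 has an annotated start at -2.29 kb from the canonical one, and its H3K27ac peak lay downstream of that start. For EGR3, further starts of the gene itself are annotated 0.30 and 1.07 kb downstream, and none upstream. Among basic transcripts, EGR1 has 1 start. Starts of non-coding genes were not read, and other annotated genes lie upstream of both. The CTCF peak at -1.52 to -0.82 kb of EGR1 overlapped an exon of ENSG00000289267. That at -2.41 to -2.26 kb of EGR3 overlapped an exon of ENSG00000289521. ATF3, a stress-induced gene of the ATF family, had a gap in H3K27ac from -0.40 to 0.10 kb with peaks of 1500 and 1450 bp on both sides, and its Pol II peak of 800 bp filled that gap. ATF3 also has a start at -43.43 kb with H3K4me3, H3K27ac, H3K4me1 and Pol II within 1.5 kb. NR4A1, an orphan nuclear receptor gene, has one at -28.61 kb with H3K4me3, H3K27ac, Pol II and CTCF.

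Peaks at KLF6, IER2 and DUSP1 were among the widest at promoters. KLF6 and IER2 are a zinc-finger transcription factor gene and a nuclear regulator gene. The H3K4me3 peak was 7050 bp in KLF6, 7400 bp in IER2 and 7950 bp in DUSP1, wider than 99.0%, 99.1% and 99.4% of H3K4me3 peaks at protein-coding promoters, whose median was 2000 bp. H3K27ac was 7100, 7150 and 9800 bp wide in the same order, against a median of 1850 bp. In SRF, H3K27ac was 5250 bp wide and in IER3 6100 bp, wider than 95.1% and 96.7% of such peaks. The peaks of IER2 and of IER3 also covered the TSS of a neighbour, STX10 and FLOT1. EGR1 (2000 bp), EGR2 (2400 bp), EGR3 (2550 bp), NR4A1 (1350 bp) and ATF3 (1500 bp) had H3K27ac peaks between the percentiles 32.8 and 70.5. Widths depend on the gap joined when peaks were called: no pair of peaks in the H3K27ac or H3K4me3 list was closer than 500 bp. At ATF3 this smallest gap parted 2 H3K27ac peaks, from -0.40 to 0.10 kb, and 1500 bp is the wider of them. The same gap parted the 2 H3K27ac peaks in the window of KLF6. In the Pol II list the smallest gap was 800 bp and in the H3K4me1 list 1000 bp, so the wide Pol II and H3K4me1 peaks described below depend on it too.

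Pol II was listed over the whole gene in 4 of the 10 genes. The Pol II peak of KLF6 was 13450 bp long and ran 2437 bp past the end of the gene. In IER2 it was 6850 bp and ran 1725 bp past, in DUSP1 7400 bp and 2898 bp past, and in IER3 6050 bp and 4425 bp past, across the TSS of FLOT1. The other 6 genes had a body cover of 0% to 30.2%. A single Pol II peak covered the whole gene in 2.74% of all genes and in 4.17% of genes with H3K27ac at the TSS. Short genes are more often covered: among genes of at most 10 kb with H3K27ac the share was 20.3%, and 7 of the 10 genes were in that range, of which 4 were covered. Among such genes under 2 kb, the range of IER3, the share was 45.4%, and at 2 to 5 kb, the range of IER2 and DUSP1, it was 27.3%. At 5 to 10 kb it was 10.8%, and KLF6, at 9.29 kb, was the 1 covered of the 3 in that range.

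The other short genes, EGR1 (3.83 kb), EGR2 (7.17 kb) and EGR3 (5.82 kb), had 2.17%, 0% and 0% of their bodies in Pol II peaks, below the lower quartile of genes of their length with H3K27ac (11.2% at 2 to 5 kb, 5.48% at 5 to 10 kb). Pol II at EGR1 ended 0.08 kb after the TSS. The nearest Pol II peak of EGR2 lay at 4.68 to 5.67 kb, beyond the end of its 4.37 kb canonical transcript. At NR4A1 the 900 bp of listed Pol II reached from -0.72 to 0.17 kb, and 2.17% of its canonical transcript of 8.06 kb was covered. In SRF the TSS lay under 1800 bp of Pol II, between -0.81 and 0.99 kb. The 30.2% of the SRF body in Pol II peaks included its last part, under a peak of 2950 bp that also covered the TSS of CUL9, the next gene.

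**Figure D3:**
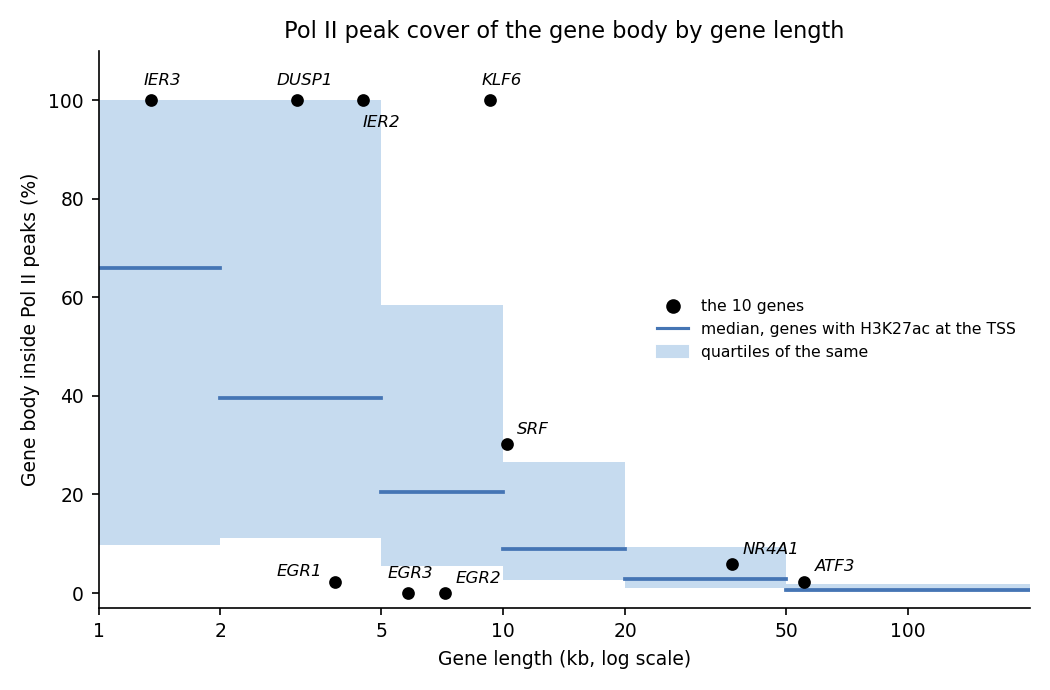
Percent of the gene body inside Pol II peaks (y axis) against gene length (x axis, kb, log scale). Points are the 10 genes; lines and shading are the median and quartiles of genes with H3K27ac at the TSS in 6 ranges of length, the last drawn to 200 kb. IER3, DUSP1, IER2 and KLF6 are at 100%, and EGR1, EGR2 and EGR3 lie below the shading.

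In the gene body with 50 kb either side, the genes fell apart in the same way. H3K27ac covered 35.8% of this interval at IER3, 33.4% at KLF6, 30.6% at DUSP1 and 22.4% at IER2, higher than in 99.8%, 99.7%, 99.6% and 98.1% of all genes. At the other 6 it covered 3.85% (EGR1) to 7.89% (SRF), and the median of all genes was 3.79%. H3K4me1 covered 54.3% at IER3, 53.4% at DUSP1 and 44.7% at KLF6, where the median of all genes was 8.18%. KLF6 and DUSP1 had no other protein-coding TSS in the interval, while IER3 had 3 and IER2 4.

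p300/CBP was listed within 50 kb of 5 of the 10 genes, with 11 peaks at KLF6, 9 at IER3, 4 at DUSP1, 2 at IER2 and 1 at ATF3. Of all genes, 25.7% had such a peak, and of genes with H3K27ac 28.5%. The number of peaks at KLF6 was higher than in 99.6% of genes, at IER3 in 99.4% and at DUSP1 in 96.3%. With peaks narrower than 150 bp, the median of the list, set aside, there were 9 at KLF6, 5 at IER3, 1 at IER2, 1 at ATF3 and 0 at DUSP1. Some listed peaks lay close together. With peaks less than 500 bp apart joined, there were 9 at KLF6, 6 at IER3, 3 at DUSP1, 2 at IER2 and 1 at ATF3. EGR1, EGR2, EGR3, NR4A1 and SRF had none. From the TSS, their nearest p300/CBP peak was 189 kb away in EGR1, 144 kb in EGR2, 95.7 kb in EGR3, 96.0 kb in NR4A1 and 554 kb in SRF, with a median of 199 kb over all genes. CTCF peaks were within 50 kb of all 10 genes, as of 92.8% of all genes, from 1 peak at EGR2 and KLF6 to 10 at NR4A1.

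**Figure D4:**
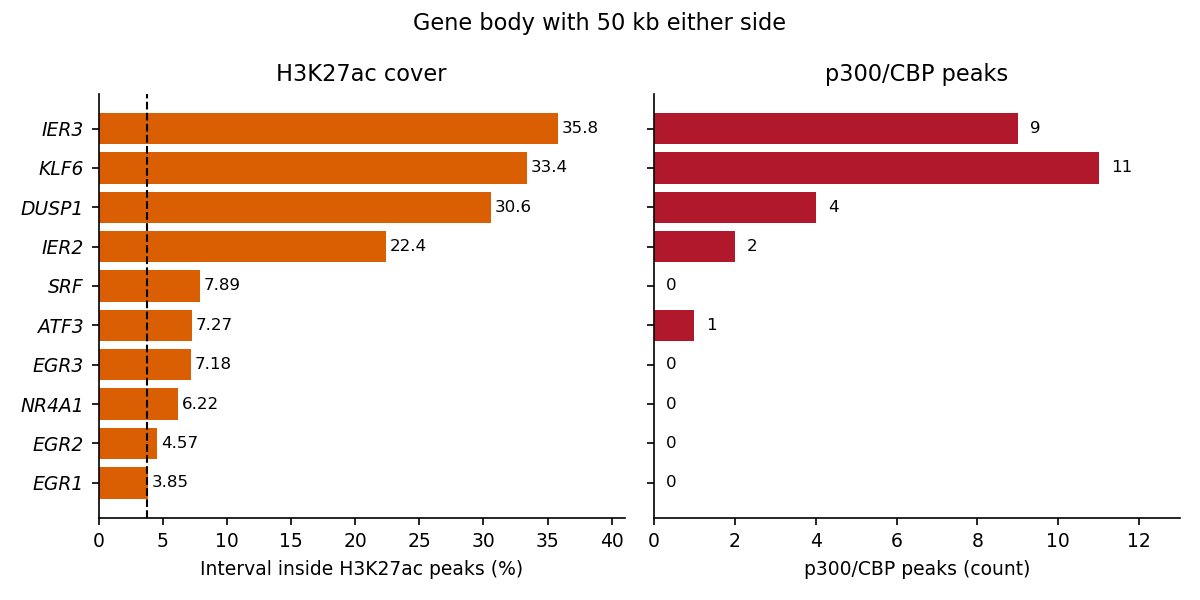
Percent of the gene body with 50 kb either side inside H3K27ac peaks (left) and number of p300/CBP peaks in the same interval (right) for the 10 genes. The dashed line is the median of all protein-coding genes, 3.79%; that of p300/CBP peaks is 0. IER3, KLF6, DUSP1 and IER2 stand above 20% and hold 26 of the 27 p300/CBP peaks.

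All 27 of these p300/CBP peaks shared bases with H3K27ac, where 49.3% of all p300/CBP peaks did. All but the ATF3 peak lay at KLF6, IER3, DUSP1 and IER2. There H3K27ac covered more of the interval than in 98.1% to 99.8% of all genes. The share over all p300/CBP peaks was not matched for this cover. With Pol II, 51.9% of the 27 shared bases (15.2% of all) and with H3K4me3 55.6% (16.4%). These percents pool the genes, and most of the peaks that shared bases with Pol II were at IER3, where nearly all did. Those at IER2 and the pair near the TSS of DUSP1 also did. At KLF6, which had the most p300/CBP peaks, few shared bases with Pol II, and the ATF3 peak did not. None of the 27 shared bases with CTCF (3.63% of all). For 25 of the 27 the nearest protein-coding TSS was that of the gene itself, the exceptions being the pair nearest to FLOT1. By GENCODE, 5 were intergenic, 12 intronic and 10 overlapped an exon, of long non-coding genes in all cases but the one in KLF6. Of the 27, 11 were 100 bp wide (40.7%, against 46.5% of all p300/CBP peaks), including all 4 at DUSP1.

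At KLF6 the p300/CBP peaks lay in wide candidate active enhancers (cAEs). These are H3K4me1 regions that share bases with H3K27ac and touch no promoter window of a canonical protein-coding TSS. A cAE of 11850 bp from -29.45 to -17.60 kb, of which 11450 bp were in H3K27ac, held 5 peaks. Another of 13900 bp from 18.05 to 31.95 kb, past the end of the gene, held 4. A cAE of 6700 bp over the end of the gene and one of 7100 bp beyond -39.20 kb held 1 each. At DUSP1 a cAE of 24700 bp, wider than 99.7% of the 24323 cAEs, ran from -40.05 to -15.35 kb, with 6 H3K27ac peaks, 2 p300/CBP peaks and no CTCF. The study, which used RefSeq promoters, reports a higher total of cAEs. At IER3 an H3K4me1 region of 26250 bp ran from -26.73 to -0.48 kb with 6 H3K27ac peaks and 6 p300/CBP peaks. This region touched the promoter window and so was not counted as a cAE.

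The 10 genes had 36 cAEs within 50 kb, from 1 at NR4A1 to 6 at ATF3, KLF6 and DUSP1. The median was 3, against 1 over all genes and 2 over genes with H3K27ac at the TSS. Windows at other annotated starts were not excluded. The ATF3 cAE from -43.35 to -40.50 kb lay at the ATF3 start at -43.43 kb. Likewise, the EGR2 cAE from -2.27 to -1.98 kb lay at the EGR2 start at -2.29 kb. p300/CBP was listed in 22.2% of the 36 cAEs and in 20.6% of all cAEs, and CTCF in 19.4% and 16.4%. Pol II was listed in 44.4% (21.0% of all cAEs) and H3K4me3 in 72.2% (34.2%). The cAEs counted include some beside a promoter, whose H3K4me3 or Pol II is the peak over the TSS. Such were the cAEs at EGR1 (-6.12 to -1.62 kb) and DUSP1 (2.35 to 6.65 kb). How many cAEs were of this kind was not counted, here or over all cAEs. The median width of the cAEs near the 10 genes was 3575 bp (2550 bp over all cAEs). At EGR1, 3 cAEs of 1600 to 4500 bp held 200 to 550 bp of H3K27ac each.

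**Figure D5:**
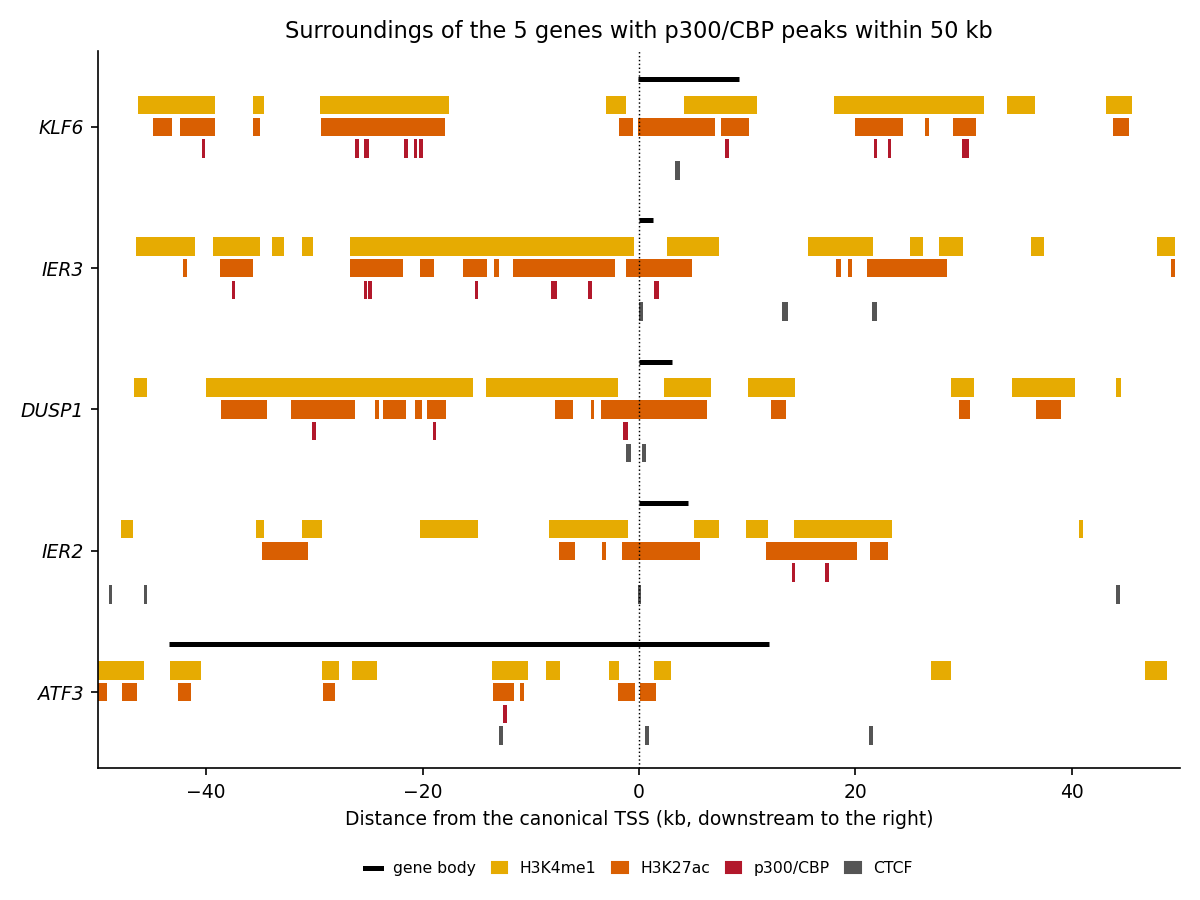
H3K4me1, H3K27ac, p300/CBP and CTCF peaks within 50 kb of the canonical TSS (x axis, kb; dotted line, TSS) of the 5 genes with p300/CBP peaks near them; the black line is the gene body and narrow peaks are drawn no thinner than 1/300 of the axis. The p300/CBP bars upstream of KLF6 and IER3, and those downstream of KLF6, fall inside wide H3K4me1 and H3K27ac bars; the pair downstream of IER3 lies in H3K27ac without H3K4me1.

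The sequences of 5 of these p300/CBP peaks are shown because they hold the motif of AP-1, the dimer of FOS and JUN family proteins, whose members Fra-1 and Fra-2 were the subject of the study. They are read on the plus strand of GRCh37, with AP-1 motifs (TGANTCA, either strand) in capitals, and the last position of each is the first base after the peak. The KLF6 peaks are chr10:3797251-3797501 (29.90 to 30.15 kb from the TSS), chr10:3805451-3805701 (21.70 to 21.95 kb) and chr10:3848101-3848201 (-20.80 to -20.70 kb). The first is in an intron and the other 2 overlap exons of non-coding genes. The IER3 peak is chr6:30720301-30720451 (-8.13 to -7.98 kb, in an intron of HCG20). The ATF3 peak is chr1:212769551-212769751 (-12.55 to -12.35 kb, in an ATF3 intron), and a CTCF peak of 350 bp ended where it began.
KLF6 at 29.90 kb: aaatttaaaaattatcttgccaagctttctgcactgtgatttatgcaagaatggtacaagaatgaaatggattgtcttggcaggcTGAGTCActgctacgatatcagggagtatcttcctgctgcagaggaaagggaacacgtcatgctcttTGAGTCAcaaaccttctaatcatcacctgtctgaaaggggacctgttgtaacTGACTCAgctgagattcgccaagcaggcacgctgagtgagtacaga
KLF6 at 21.70 kb: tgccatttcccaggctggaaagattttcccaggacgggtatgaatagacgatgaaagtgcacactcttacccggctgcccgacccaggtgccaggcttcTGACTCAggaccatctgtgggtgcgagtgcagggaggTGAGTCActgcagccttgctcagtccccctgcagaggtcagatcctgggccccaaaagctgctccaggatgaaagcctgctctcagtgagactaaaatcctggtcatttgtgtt
KLF6 at -20.80 kb: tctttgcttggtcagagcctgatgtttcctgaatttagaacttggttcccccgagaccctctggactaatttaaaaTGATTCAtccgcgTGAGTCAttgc
IER3 at -8.13 kb: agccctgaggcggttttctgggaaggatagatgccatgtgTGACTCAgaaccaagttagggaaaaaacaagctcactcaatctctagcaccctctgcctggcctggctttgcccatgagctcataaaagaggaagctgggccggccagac
ATF3 at -12.55 kb: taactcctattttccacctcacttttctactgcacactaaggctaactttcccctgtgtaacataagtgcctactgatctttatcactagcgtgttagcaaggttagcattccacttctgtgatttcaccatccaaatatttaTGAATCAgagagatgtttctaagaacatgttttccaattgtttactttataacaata

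The first KLF6 peak held 3 AP-1 motifs, the next 2 held 2 each, and the IER3 and ATF3 peaks 1 each. In all, 11 of the 27 p300/CBP peaks near the 10 genes held the motif (40.7%), where 28.1% of all p300/CBP peaks and 43.8% of the 7004 in cAEs did. None of the 4 peaks at DUSP1 and of the 2 at IER2 held it. A full CRE was in 1 of the 27, an IER3 peak 37.4 kb upstream of its TSS, and in 0.172% of all p300/CBP peaks. CArG boxes were in none of the 27 and in 1.02% of all.

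The 28 further immediate early genes gave the wider setting. H3K4me3 and H3K27ac were each at the TSS of 25 (89.3%), H3K4me1 of 16 (57.1%), Pol II of 23 (82.1%) and p300/CBP of 3 (10.7%). Over all genes, the shares at the TSS were 62.7%, 61.5%, 59.4%, 58.4% and 0.704% in the same order. EGR4, DUSP2 and SGK1, a transcription factor, a phosphatase and a kinase gene, had no H3K27ac there. Only the canonical TSS of the 28 genes was read, so other starts may carry it. SGK1, a gene of 149 kb, had 0.840% of its body in Pol II peaks. Within 50 kb, SGK1 had 3 cAEs and 1 p300/CBP peak. p300/CBP was at the TSS of CCN2, DUSP6 and TRIB1, a matrix-protein, a phosphatase and a pseudokinase gene. A single Pol II peak covered the whole gene in 11 of 28 (39.3%, against 2.74% of all genes), among them DUSP4, DUSP5, DUSP6, ZFP36, IER5 and CCN1. Several of these genes are short, and 20.3% of genes of at most 10 kb with H3K27ac at the TSS were covered. p300/CBP was within 50 kb of 15 (53.6%, against 25.7% of all genes), with 9 peaks at CCN1 and 8 at DUSP6. These examples were named after their values were seen. Of the genes for SRF partners, ELK1, ELK3, ELK4, MRTFA and MRTFB, all 5 had H3K27ac and Pol II at the TSS and none had p300/CBP there. Over all genes, 61.5%, 58.4% and 0.704% had H3K27ac, Pol II and p300/CBP there.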

How the data were processed

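ChIP-seq of MDA-MB-231 cells had been made with 2 replicate libraries per antibody (1 for p300/CBP). According to the methods, reads were aligned to hg19 with BWA-backtrack, whereas the submitters' processing notes name Bowtie2; signal was made with PASHA, replicates were merged, and regions above a set signal were taken as peaks with the Integrated Genome Browser. The deposited lists give peak positions on a 50 bp grid, without score, so depth is unknown. By their names, scaling and subtraction of background were applied for histone marks and p300/CBP, scaling alone for Pol II, and neither for CTCF. No value column was left unmapped (0).

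Python 3.11.15, NumPy 2.4.6, pandas 2.3.3, pysam 0.24.0 and matplotlib 3.10.9 were used. An overlap was at least 1 bp. Windows were 1.5 kb either side of the Ensembl canonical TSS, and intervals were the gene body with 50 kb either side. Percentiles give the share of smaller values. Interval and motif functions were tested on simulated data. All 10 genes were named; of 28 further immediate early genes, those without H3K27ac or with p300/CBP at the TSS, or with a member's combination of lists, were named, and neighbours whose TSS lay under or nearest to a described peak. Members and lists were chosen with earlier results of these data known. The spacing of 7 bases, the gene-length ranges, the TSS-base counts and the DUSP5 sequence were chosen after their values were seen.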

Additional observations from a re-analysis of the deposited data

How the results depend on the processing

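Of 64 alternative values for 24 results, 43 stayed within 1.5 times the reported count or were equal to the reported value, and 21 moved. With the peak centre required inside the window, 5 genes had H3K4me1 and 4 had Pol II, since the Pol II peaks of KLF6, IER2, IER3 and DUSP1 are centred downstream of the window and that of EGR3 upstream. p300/CBP was at the TSS of 0 genes within 1 kb, and of 0 with peaks at least as wide as their list's median, a setting chosen in place of a stricter signal threshold. With such peaks there were 16 p300/CBP and 26 CTCF peaks within 50 kb, and 82 CTCF peaks within 100 kb. With at least 50% of a region under H3K27ac, 15 cAEs were counted in place of 36. The median share of the gene body in Pol II peaks, 18.0%, became 14.5% with wide peaks and 16.2% for canonical transcripts, with 4 genes covered whole in both. Joining peaks less than 1000 bp apart moved the median width of the widest peak at the TSS from 3075 to 3650 bp (H3K4me3) and from 3900 to 4350 bp (H3K27ac). Among genes with H3K27ac at the TSS, the background was 97.7% for H3K4me3, 85.3% for H3K4me1, 92.0% for Pol II, 0.990% for p300/CBP, 24.4% for CTCF, 4.17% for whole-gene Pol II (20.3% up to 10 kb) and 28.5% for p300/CBP within 50 kb. AP-1 was in 43.8% of p300/CBP peaks in cAEs. The limit of 10 kb and the restriction of the AP-1 background to cAEs were chosen after seeing the data. No replicate could be left out. No paired analysis was possible because each list pools its libraries.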
